A study of Mus musculus with 2 samples.

Results

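The mitochondrial ribosomal protein genes, the nuclear genes that encode the protein parts of the ribosome inside mitochondria, were compared between 2 cultures of embryonic stem (ES) cells of the mouse. Members were the rows whose symbol is Mrpl or Mrps followed by a number and at most 1 further letter. The rule found 77 of the 14261 rows of the deposited table, 48 with large subunit (Mrpl) and 29 with small subunit (Mrps) symbols. It used only the symbols and none of the measured values. Both cultures were labelled TRE-ESC and kept for 36 h in suspension, in dishes of low adsorption, in N2B27 medium with the 2i kinase inhibitors and the cytokine LIF. The culture TRE-suspend-adox-36h received doxycycline (dox), an inducer of transgenes under tetracycline control, and the culture TRE-suspend-36h received none. The study asked about c-Jun, a member of the AP-1 family of transcription factors, and the differentiation it induces. The labels used here name no promoter, clone, strain or number of cultures behind a library.

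Mitochondria keep a small genome of their own and translate its messenger RNAs on a separate ribosome. Its 2 ribosomal RNAs are made from the mitochondrial genome, whereas its proteins are encoded in the nucleus, made in the cytosol and imported. Some of these proteins descend from those of the bacterial ribosome, and others are found only in mitochondria. The products of this ribosome are core subunits of the respiratory chain and of ATP synthase.

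There was 1 library per group, so no test was possible, no value has a spread between cultures, and every difference below is a description of 2 libraries. Values are whole numbers whose unit is not stated and which were taken to be normalized, with quartiles of 14, 62 and 184 in both libraries, and the sequencing depth behind them is unknown. The log2 ratio of a gene is log2 of its value with dox plus 10, over its value without dox plus 10, so that differences of low genes come out too small. A floor of 50 on the larger of the 2 values was passed by 8547 genes, whose median log2 ratio was −0.08. Jun itself had the value 3821 with dox and 55 without dox. Of 5 ES cell markers all were at or above the floor, with a summed value of 5675 with dox and 9358 without dox. Pou5f1 was at 3572 with dox and 3230 without dox, and the other 4 were lower with dox, Nanog the most, at 623 with dox and 2508 without dox. Of 7 fibroblast markers none reached the floor, with sums of 70 with dox and 16 without dox, and Dcn and Lum were at 0 in both libraries. Of 7 blood and endothelial markers 5 were among the rows and 3 reached the floor, with sums of 381 with dox and 233 without dox, and directions were mixed. Csf1r was at 111 with dox and 1 without dox, Cd68 at 96 with dox and 19 without dox, Ptprc at 19 with dox and 0 without dox, and Pecam1 at 152 with dox and 205 without dox. The part of these markers in the values below was not tested.

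Nearly the whole family had smaller values with dox, by a modest amount. Of the 77 genes 73 were lower with dox, 3 were higher and 1 had the same value in both libraries, against 51.0% of all rows that were lower. Their values summed to 8213 with dox and 12055 without dox, a ratio of 0.681, and made up 0.303% of the table's total with dox and 0.446% without dox. The median member stood at 99 with dox and 138 without dox. In bulk RNA, fewer cells that express these genes and less of their RNA per cell cannot be told apart.

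**Figure D1:**
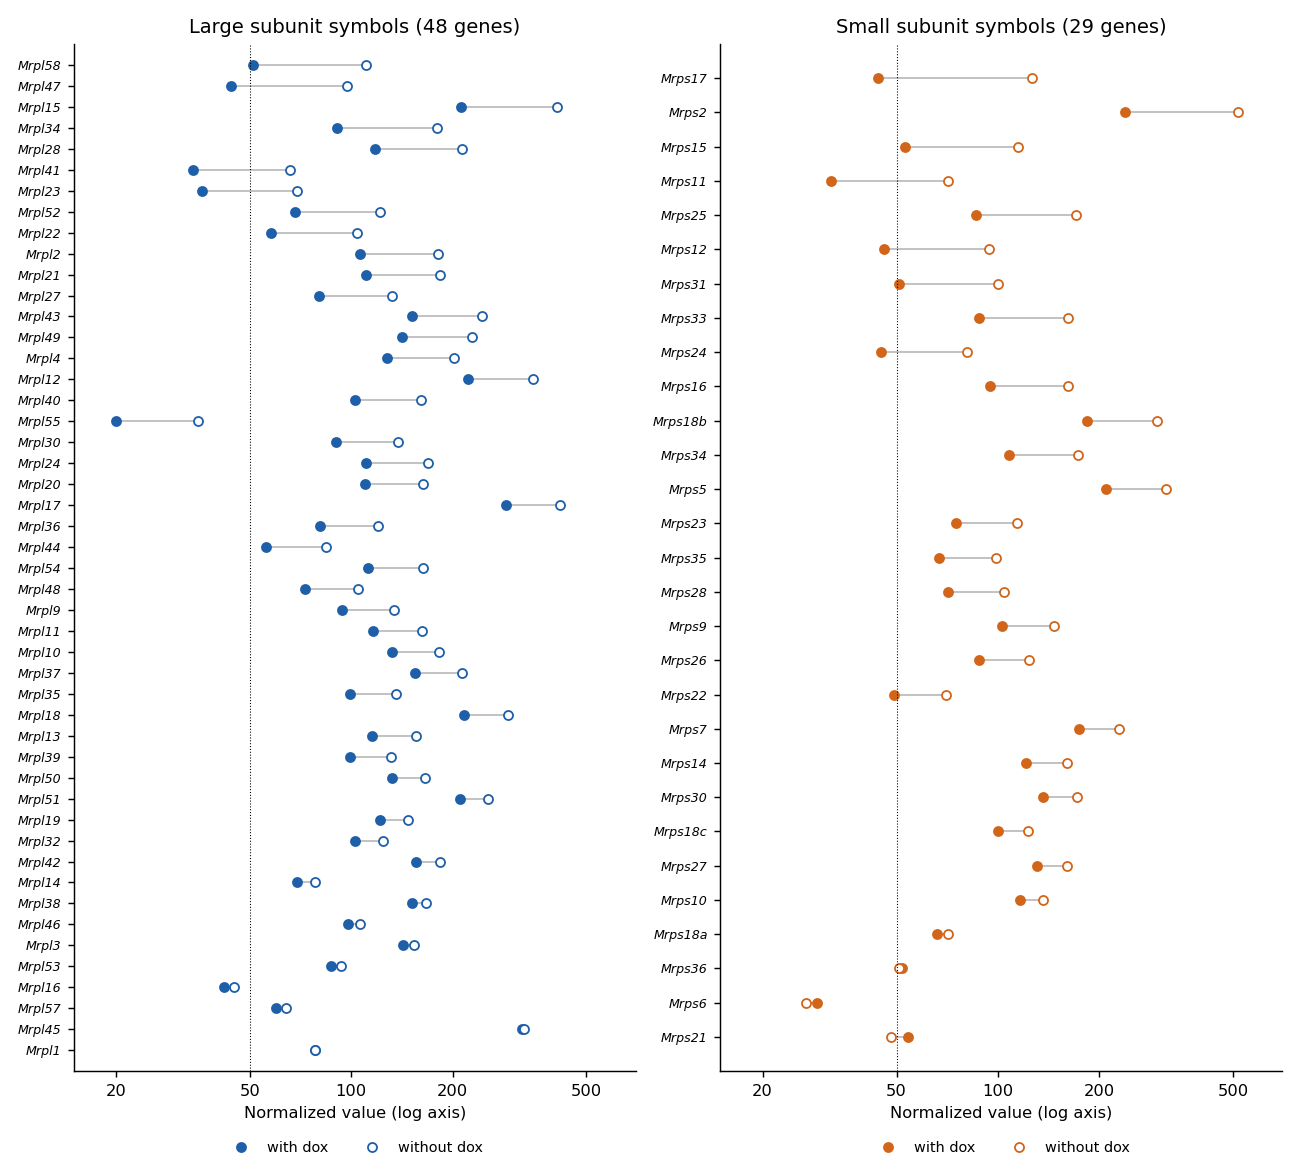
Value of each mitochondrial ribosomal protein gene (log axis) with dox (filled) and without dox (open), with genes of each subunit ordered by log2 ratio and the floor of 50 dotted. The filled point lies left of the open one for 73 of 77 genes, and Mrps21, Mrps6 and Mrps36 have the reverse order.

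At or above the floor were 74 members, 46 large and 28 small subunit genes. Their median log2 ratio was −0.51, which is 1.42-fold lower with dox, and the middle of the distribution ran from −0.72 at the lower quartile to −0.31 at the upper quartile. At least 2-fold lower were 2 of 74, against 5.49% of all genes at or above the floor, and at least 2-fold higher were 0, against 9.23%. At least 1.5-fold lower were 29 of 74 (39.2%), against 17.7% of all genes, and at least 1.5-fold higher were 0, against 16.7%. Because either library could carry a gene past the floor, 8 members passed it only without dox and 1 only with dox. Over the 65 members with both values at or above 50 the median was −0.49. Of these 65, 63 were lower with dox, against 55.9% of the 7046 genes with both values at or above 50. At least 1.5-fold lower were 22 of the 65, against 14.2% of those 7046 genes. The members just outside the floor were Mrpl16, at 42 with dox and 45 without dox, Mrpl55, at 20 with dox and 35 without dox, and Mrps6, at 29 with dox and 27 without dox. Of the Mrps6 transcript 36.1% overlaps exons of Gm49711 on the same strand, so its value is uncertain. The members just inside were Mrps36, at 52 with dox and 51 without dox, and Mrps21, at 54 with dox and 48 without dox.

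**Figure D2:**
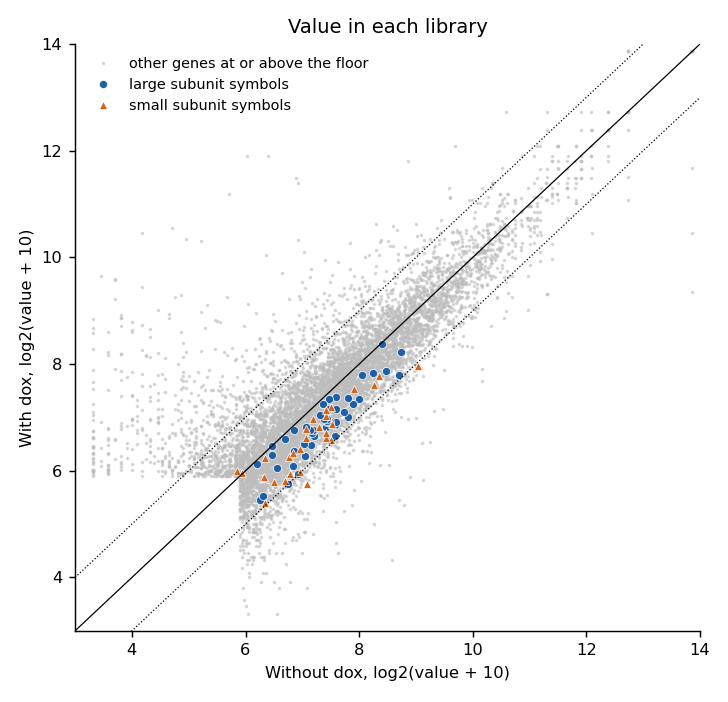
Log2 of value plus 10 with dox (vertical axis) against without dox (horizontal axis) for 8547 genes, with equality as a solid line and 2-fold as dotted lines. Large subunit genes (circles) and small subunit genes (triangles) lie mostly between equality and 2-fold lower, and 2 small subunit genes, Mrps17 and Mrps2, lie past 2-fold.

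The large and the small subunit differed little in their medians. The median log2 ratio was −0.51 over the 46 large subunit genes and −0.52 over the 28 small subunit genes, a difference of 0.016. The large subunit genes ranged from −0.99 to 0.00 and the small subunit genes from −1.33 to 0.14, so both genes past 2-fold and both genes above 0 had small subunit symbols. With a pseudocount of 1, 7 members were at least 2-fold lower, 2 large and 5 small subunit genes, against 7.11% of all genes. At least 1.5-fold lower were 17 of 46 large (37.0%) and 12 of 28 small subunit genes (42.9%), read against the same 17.7% of all genes. Summed over all members, the large subunit stood at 5500 with dox and 7838 without dox (ratio 0.702), and the small subunit at 2713 with dox and 4217 without dox (ratio 0.643).

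Symbol and place in the ribosome do not always match. The products of Mrps18a and Mrps30 carry small subunit names and sit in the large subunit, and that of Mrps36 was later assigned to the 2-oxoglutarate dehydrogenase complex. Mrps30 stood at 136 with dox and 172 without dox, a log2 ratio of −0.32, and Mrps18a at 66 with dox and 71 without dox, or −0.09. With these genes grouped by place, the median was −0.49 for the large and −0.57 for the small subunit. The medians of genes with and without a bacterial homolog lay within 0.1 of each other in both subunits. The 27 large subunit genes with a bacterial homolog had a median of −0.53 and the other 19 a median of −0.43. In the small subunit the 17 with a homolog had −0.57 and the other 11 had −0.50.

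Promoter sequence was read from RefSeq windows of 300 bases (250 before to 50 after the start) on GRCm38.p6, which held 68 of the 77 members. In all, 5 motifs were searched on both strands, none of them contains another, and a match is a description of letters only. The ETS core CCGGAAG, bound by factors such as GABP that are known regulators of nuclear genes for mitochondria, was in the windows of 25 of 68 members (36.8%), against 23.3% of 6693 genes of the table at or above the floor and 9.93% of 27025 genes with a window. The YY1 core AAGATGG was in 13 (19.1%), against 9.40% and 7.28%. The NRF-1 core GCATGCG was in 7 (10.3%), against 8.43% and 4.01%. The E-box CACGTG, bound by MYC and related factors, was in 5 (7.35%), against 13.0% and 8.09%. The AP-1 motif TGANTCA was in 2, Mrps25 and Mrps5 (2.94%), against 5.54% and 8.97%. Members with the ETS core had a median log2 ratio of −0.52 (25 genes) and those without it −0.51 (40 genes). With and without the YY1 core the medians were −0.43 (13 genes) and −0.53 (52 genes). With and without the NRF-1 core they were −0.47 (7 genes) and −0.52 (58 genes), and for the E-box −0.51 (5 genes) and −0.52 (60 genes). The AP-1 motif gave −0.74 (2 genes) and −0.51 (63 genes).

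Of the small subunit, Mrps17, a homolog of a bacterial rRNA-binding protein, was the member with the lowest log2 ratio. It stood at 44 with dox and 126 without dox, 2.52-fold lower. The gene lies on the plus strand of chromosome 5 from 129715497 to 129722556 in GRCm38 and its longest coding transcript has 4 exons. Mrps2, of the subunit's head, had the largest member value without dox and stood at 239 with dox and 517 without dox, 2.12-fold lower. It lies on the plus strand of chromosome 2 from 28468066 to 28471178. Mrps15 and Mrps11 are homologs of proteins of the bacterial platform. Mrps15 was at 53 with dox and 115 without dox, and Mrps11 was at 32 with dox and 71 without dox. Mrps25, a mitochondria-specific protein gene, stood at 86 with dox and 171 without dox, and 75.6% of its longest transcript overlaps exons of Nr2c2 on the other strand, whose reads cannot be told apart without strand. Each of these 5 had a log2 ratio of −0.91 or lower.

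At the other end of the small subunit, differences were small. Mrps21, of the platform, stood at 54 with dox and 48 without dox, and 54.1% of its transcript aligns to Gm6181 at 97.3% identity. Mrps36 stood at 52 with dox and 51 without dox and Mrps18a at 66 with dox and 71 without dox. Mrps10, of the head, stood at 116 with dox and 136 without dox, and 50.1% of its transcript has a near-identical copy elsewhere. Mrps27, a pentatricopeptide repeat protein gene, stood at 131 with dox and 160 without dox, and 22.6% of its transcript overlaps exons on the other strand. Mrps21 and Mrps36 were the 2 members at or above the floor with a larger value with dox.

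The promoters of the genes with the lowest and highest log2 ratios are printed for each subunit, so that their letters can be set beside the values. Each runs 5′ to 3′ from 100 bases before to 50 after the RefSeq start, and capitals mark matches to the motifs. Those of the lowest small subunit genes are Mrps17, chr5:129715397-129715546, and Mrps2, chr2:28467966-28468115, both on the plus strand. Those of the highest are Mrps36, chr13:100744610-100744759, and Mrps21, chr3:95871465-95871614, both on the minus strand.
Mrps17: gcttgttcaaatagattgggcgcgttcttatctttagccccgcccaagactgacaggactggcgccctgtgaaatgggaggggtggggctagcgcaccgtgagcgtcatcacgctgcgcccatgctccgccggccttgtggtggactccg
Mrps2: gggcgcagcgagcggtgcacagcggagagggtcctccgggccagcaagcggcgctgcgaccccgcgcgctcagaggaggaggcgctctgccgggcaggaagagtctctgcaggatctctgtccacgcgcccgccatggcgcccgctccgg
Mrps36: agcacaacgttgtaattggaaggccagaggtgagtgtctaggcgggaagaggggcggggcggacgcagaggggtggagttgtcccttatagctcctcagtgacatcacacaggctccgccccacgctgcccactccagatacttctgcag
Mrps21: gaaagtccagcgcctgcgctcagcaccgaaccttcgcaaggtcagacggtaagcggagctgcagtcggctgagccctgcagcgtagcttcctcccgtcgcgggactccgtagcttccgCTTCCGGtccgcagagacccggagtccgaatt

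The Mrps18 genes are 3 paralogs of a bacterial platform protein whose products take different places in the ribosome, Mrps18a in the large subunit and the other two in the small subunit. They also differed in value. Mrps18b stood at 184 with dox and 296 without dox, 1.58-fold lower, whereas Mrps18c stood at 100 with dox and 123 without dox and Mrps18a at 66 with dox and 71 without dox. Of their transcripts, 59.1% of Mrps18b overlaps exons of Gm16279 on the other strand and 21.2% of Mrps18c those of Gm43511 on the same strand, so both values are uncertain. The windows of the 3 paralogs are shown in full (300 bases). Mrps18a is at chr17:46110754-46111053 on the plus strand, Mrps18b at chr17:35916391-35916690 on the minus strand and Mrps18c at chr5:100798509-100798808 on the plus strand.
Mrps18a: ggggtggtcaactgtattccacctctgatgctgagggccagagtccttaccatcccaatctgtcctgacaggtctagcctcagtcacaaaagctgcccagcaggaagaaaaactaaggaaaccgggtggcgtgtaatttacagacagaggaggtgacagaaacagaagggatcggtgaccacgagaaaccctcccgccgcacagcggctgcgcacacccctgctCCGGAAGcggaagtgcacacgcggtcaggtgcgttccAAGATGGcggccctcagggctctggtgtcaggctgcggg
Mrps18b: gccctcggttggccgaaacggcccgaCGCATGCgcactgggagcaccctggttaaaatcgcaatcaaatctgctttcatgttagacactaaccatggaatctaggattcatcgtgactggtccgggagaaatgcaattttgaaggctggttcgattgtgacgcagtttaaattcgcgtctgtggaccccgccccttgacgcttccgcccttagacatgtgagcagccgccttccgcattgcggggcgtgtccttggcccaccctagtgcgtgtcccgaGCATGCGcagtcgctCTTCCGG
Mrps18c: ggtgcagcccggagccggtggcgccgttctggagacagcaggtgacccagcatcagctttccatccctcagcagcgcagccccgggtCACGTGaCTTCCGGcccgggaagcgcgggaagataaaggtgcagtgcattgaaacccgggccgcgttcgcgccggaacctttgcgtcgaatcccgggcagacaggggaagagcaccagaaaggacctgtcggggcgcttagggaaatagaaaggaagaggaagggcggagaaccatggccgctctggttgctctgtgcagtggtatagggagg
All 3 windows hold the ETS core. That of Mrps18a also holds the YY1 core, that of Mrps18b the NRF-1 core in 2 places, and that of Mrps18c the E-box.

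Of the large subunit, Mrpl58 had the lowest log2 ratio. Its product, also known as ICT1, is a peptidyl-tRNA hydrolase that works in the release of stalled ribosomes, and the gene stood at 51 with dox and 111 without dox. Mrpl47, whose bacterial homolog lies at the exit of the nascent chain, stood at 44 with dox and 97 without dox. Both had log2 ratios of −0.99, just within 2-fold with the pseudocount of 10 and past it with a pseudocount of 1. Mrpl15, a homolog of a bacterial rRNA-binding protein, stood at 212 with dox and 408 without dox. Mrpl34 and Mrpl28 also have bacterial homologs. Mrpl34 was at 91 with dox and 180 without dox, and Mrpl28 was at 118 with dox and 213 without dox.

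The large subunit genes with the smallest differences included Mrpl45, whose product attaches the ribosome to the inner membrane. It stood at 322 with dox and 327 without dox. Mrpl1, homolog of the protein of the bacterial L1 stalk, stood at 78 in both libraries. Mrpl3, whose bacterial homolog reaches toward the peptidyl transferase centre, stood at 143 with dox and 154 without dox. Mrpl53 and Mrpl57 are mitochondria-specific. Mrpl53 was at 87 with dox and 93 without dox, and Mrpl57 was at 60 with dox and 64 without dox. All of the longest transcript of Mrpl53 lies within exons of Gm42688 on the same strand, so its value is uncertain.

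The promoters of the lowest large subunit genes are Mrpl58, chr11:115403652-115403801 on the plus strand, and Mrpl47, chr3:32736706-32736855 on the minus strand. Those of the highest are Mrpl45, chr11:97315616-97315765, and Mrpl1, chr5:96210015-96210164, both on the plus strand.
Mrpl58: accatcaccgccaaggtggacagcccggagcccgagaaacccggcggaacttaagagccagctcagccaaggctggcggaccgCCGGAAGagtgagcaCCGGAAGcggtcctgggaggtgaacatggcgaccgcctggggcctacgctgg
Mrpl47: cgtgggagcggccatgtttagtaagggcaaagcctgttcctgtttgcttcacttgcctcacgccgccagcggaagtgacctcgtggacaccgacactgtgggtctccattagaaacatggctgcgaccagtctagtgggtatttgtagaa
Mrpl45: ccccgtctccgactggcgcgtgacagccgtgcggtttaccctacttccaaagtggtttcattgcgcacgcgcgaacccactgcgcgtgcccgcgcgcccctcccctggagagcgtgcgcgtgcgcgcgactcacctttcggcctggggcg
Mrpl1: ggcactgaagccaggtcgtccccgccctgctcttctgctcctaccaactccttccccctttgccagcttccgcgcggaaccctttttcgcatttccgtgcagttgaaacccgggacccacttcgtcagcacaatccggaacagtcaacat
Of the 8 stretches printed for both subunits, that of Mrpl58, among the lowest, and that of Mrps21, the highest, hold the ETS core, and the other 6 hold none of the 5 motifs.

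Grouped by place in the ribosome, log2 ratios also varied within groups. The groups were drawn up with the values known and need not hold every protein of a place, so their medians describe only the genes grouped. The stalk genes Mrpl10, Mrpl11 and Mrpl12, whose products recruit translation factors, had a median log2 ratio of −0.45, with Mrpl12 at 223 with dox and 346 without dox. At the rim of the exit tunnel the median over 5 genes was −0.75, and it held both Mrpl47, among the lowest, and Mrpl45, among the highest. The 4 genes grouped under the central protuberance, Mrpl38, Mrpl40, Mrpl46 and Mrpl48, had a median of −0.30. The 3 genes grouped under mRNA entry and decoding, Mrps5, Mrps12 and Mrps24, had a median of −0.73. Of these, Mrps12, a homolog of the bacterial protein that governs decoding accuracy, stood at 46 with dox and 94 without dox. The 7 genes grouped under the head had a median of −0.47. The 4 genes grouped under the platform and at or above the floor had one of −0.61, ranging from −0.99 to 0.14.

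Levels between genes can be compared only per length, and the values were therefore divided by the length of the longest coding transcript, although the normalization behind them is not stated. The 5 largest means of both libraries per kb were those of Mrpl42, Mrpl54, Mrpl34, Mrps18b and Mrpl12, and the order differed between libraries. With dox Mrpl18, at 178 per kb, was behind Mrpl42 and Mrpl54 alone and Mrpl34 was not among the first 5, whereas without dox Mrpl34 had the largest value and Mrpl52, at 263 per kb, was just above Mrpl12. Mrpl42 had 234 per kb with dox and 275 without dox, and Mrpl54 had 185 per kb with dox and 270 without dox. Mrpl34 had 150 per kb with dox and 297 without dox, Mrps18b had 171 per kb with dox and 274 without dox, and Mrpl12 had 169 per kb with dox and 263 without dox. Mrpl42 is uncertain, since 64.4% of its transcript aligns to Gm6419 at 96.3% identity.

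Short transcripts tended to be lower with dox across the whole table, and most members are short. Over 8472 genes with a length the log2 ratio was higher for longer transcripts (Spearman rho 0.285 across genes, which are not independent). When genes were divided into 10 bins of equal size by length, the median log2 ratio was −0.39 in the shortest bin, of 126 to 1360 nt, and 0.21 in the longest. The median length was 1401 nt for members and 3296 nt for all genes, and 48 of 74 members (64.9%) lay in the 2 shortest bins. Within the shortest bin the 36 members had a median of −0.60, with 19 at least 1.5-fold lower (52.8%), against −0.39 and 31.5% over the 848 genes of that bin. In the next bin, of 1361 to 1868 nt, the 12 members had −0.49, against −0.26 over 847 genes, with 3 of 12 at least 1.5-fold lower, against 24.7%. In each of the other 8 bins, with 1 to 5 members each, the member median was also below that of all genes. Among the members themselves rho with length was 0.06, 0.26 over the 46 large and −0.27 over the 28 small subunit genes.

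With the trend on length removed by lowess over all genes, the member median was −0.25, where it was −0.51 before. It was −0.24 for the large and −0.28 for the small subunit. Members below the trend numbered 61 of 74 (82.4%), against 4191 of 8472 genes (49.5%). At least 1.5-fold below it were 8 members, against 13.0% of all genes, and 1 member, Mrps21, was at least 1.5-fold above it, against 17.7%. At least 2-fold below it were 2 members, Mrps17 and Mrps25, against 4.1% of all genes, and 0 were 2-fold above it, against 9.47%. The share at least 1.5-fold below the trend was thus no larger than that of all genes, the share above it was smaller, and the median stayed below 0. Mrps17, with an annotated transcript of 5061 nt, had −1.38 on this scale, Mrps25, with 6073 nt, had −1.04, and Mrps21, with 488 nt, had 0.60. The longest annotated transcript need not be the one these cells make.

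**Figure D3:**
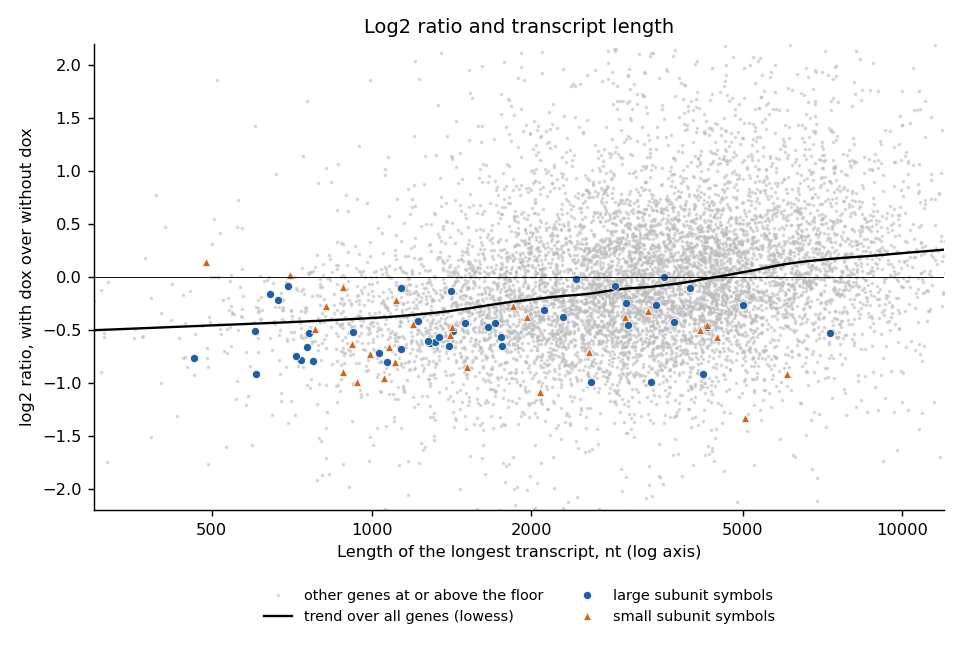
Log2 ratio, with dox over without dox, against the length of the longest transcript in nt (log axis), with other genes in grey, the lowess trend over all 8472 genes as a line and points beyond the axis limits not drawn. Of the members (circles, large subunit, and triangles, small subunit) 61 of 74 lie below the line.

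The nuclear genes of oxidative phosphorylation (OXPHOS), whose products join those of the mitochondrial ribosome in the respiratory complexes, were close to the trend where the members were below it. Of 79 OXPHOS genes 77 reached the floor, with a median length of 875 nt and a median log2 ratio of −0.33. Of these OXPHOS genes 12 (15.6%) were at least 1.5-fold lower, against 17.7% of all genes. With the length trend removed their median was 0.02, against −0.25 for the members, and 37 of 77 (48.1%) lay below the trend. In the shortest length bin 54 OXPHOS genes had a median of −0.40, against −0.60 for the 36 members. Past 2-fold were the testis-enriched Cox6b2, at 70 with dox and 164 without dox, and the ATP synthase gene Atp5b, at 14907 with dox and 6781 without dox. In each library 10 rows share that largest value of 14907, so the size of the difference for Atp5b is uncertain. The import genes of the Tomm and Timm families, 21 at or above the floor, had a median of −0.33, which was −0.11 with the trend removed. Timm8a1, at 26 with dox and 77 without dox, and Tomm40l, at 70 with dox and 156 without dox, were past 2-fold. Of all genes at or above the floor, 5.49% were at least 2-fold lower and 9.23% at least 2-fold higher. Of cytosolic ribosomal protein symbols only Rplp0, Rplp1, Rplp2 and Rpl6l were analysed here. Their median log2 ratio was −0.21, which was 0.15 with the trend removed. Lying below the trend was not particular to the members, since the lists described next also had medians below it. That of the mitochondrial tRNA synthetase genes was −0.35 with the trend removed. The differences between these lists were not tested.

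The other genes of mitochondrial translation were also lower in the median. Shares at least 1.5-fold lower are to be read against 17.7% of all genes, and shares at least 1.5-fold higher against 16.7%. Of 7 mitoribosomal protein genes with other symbols 5 were among the rows, with a median log2 ratio of −0.50 and 2 at least 1.5-fold lower. Among these Ptcd3 stood at 348 with dox and 427 without dox, Aurkaip1 at 184 with dox and 296 without dox, and Chchd1 at 100 with dox and 99 without dox. Of 26 genes for assembly of the ribosome and maturation of its RNA, 21 reached the floor, with a median of −0.47, 7 at least 1.5-fold lower (33.3%) and 0 higher. The largest were the helicase gene Dhx30, at 261 with dox and 333 without dox, and the protease gene Afg3l2, whose product processes the Mrpl32 protein in mice, at 245 with dox and 392 without dox. The 9 translation factor genes that reached the floor had a median of −0.22 and 0 past 1.5-fold. With the length trend removed the medians were −0.30 for the genes with other symbols, −0.17 for assembly and maturation, and −0.14 for translation factors. The elongation factor gene Tufm stood at 269 with dox and 354 without dox, and the membrane insertase gene Oxa1l at 202 with dox and 225 without dox.

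Of 17 mitochondrial tRNA synthetase genes 13 reached the floor, with a median of −0.46, which was −0.35 with the length trend removed. Of the 13, 4 were at least 1.5-fold lower, against 17.7% of all genes, and 0 higher, against 16.7%. One of them, Lars2, stood at 646 with dox and 14907 without dox, a gene known to draw reads from ribosomal RNA. The value without dox is again the shared largest one, so the size of this difference is uncertain too. In the list of genes for the synthesis and processing of mitochondrial DNA and RNA, all 15 at or above the floor were lower with dox, against 54.9% of all genes. At least 1.5-fold lower were 3 of the 15, against 17.7% of all genes. The median was −0.39, or −0.31 with the length trend removed. The RNA-binding Lrpprc stood at 315 with dox and 367 without dox and the nuclease gene Pnpt1 at 220 with dox and 309 without dox.

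**Figure D4:**
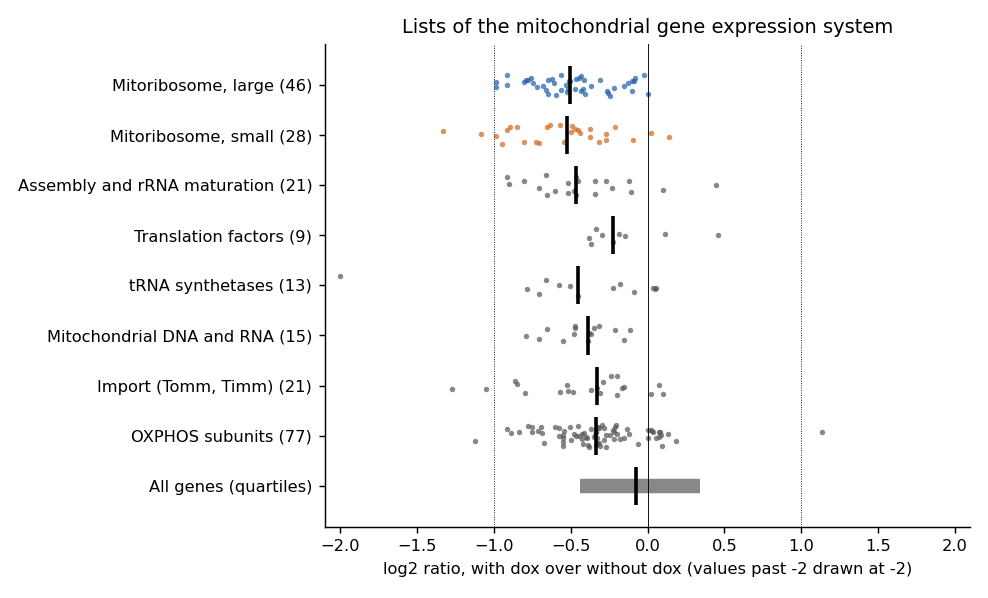
Log2 ratio, with dox over without dox, of each gene at or above the floor (points) and the median (bar) for 8 lists, with the number of genes in brackets and the quartiles of all 8547 genes as a grey bar. The medians of the large and small subunit are −0.51 and −0.52, those of OXPHOS and import genes −0.33, and Lars2, at −4.51, is drawn at −2.

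Many members start head to head with another gene, within 1000 bp on the opposite strand. Such a protein-coding neighbour was annotated for 33 members, and in 21 pairs both genes reached the floor. In 17 of the 21 pairs both genes were lower with dox and in 4 the neighbour was higher. The neighbours had a median log2 ratio of −0.32, with Mrps11, itself a member, counted as the neighbour of Mrpl46. Of all genes 54.9% were lower with dox, with a median of −0.08. In 6 pairs the 2 log2 ratios lay within 0.1 of each other. These included Mrpl47, at −0.99, with the complex I gene Ndufb5, at −0.91, and Mrpl36, at −0.51, with the complex I gene Ndufs6, at −0.50. Mrps12, at −0.89, faces the mitochondrial seryl-tRNA synthetase gene Sars2, at 87 with dox and 157 without dox, or −0.78. In other pairs the genes parted. Mrps11 and Mrpl46 face each other, and Mrps11 stood at 32 with dox and 71 without dox while Mrpl46 stood at 98 with dox and 106 without dox. Rab6a, the neighbour of Mrpl48, stood at 589 with dox and 323 without dox, and Mrpl48 at 73 with dox and 105 without dox. Eme1, the neighbour of Mrpl27, stood at 44 with dox and 155 without dox, and Mrpl27, which has a near-identical copy, at 80 with dox and 132 without dox. Starts were those of the gene annotation, and 11 members overlap exons of another gene over at least 20% of their transcript. Some members overlap exons of the neighbour itself, and use of strand is not stated. These include Mrpl43 with Twnk (27.5% of the member's transcript), Mrpl13 with Mtbp (27%), Mrpl18 with Tcp1 (11.6%) and Mrpl47 with Ndufb5 (4.7%).

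**Figure D5:**
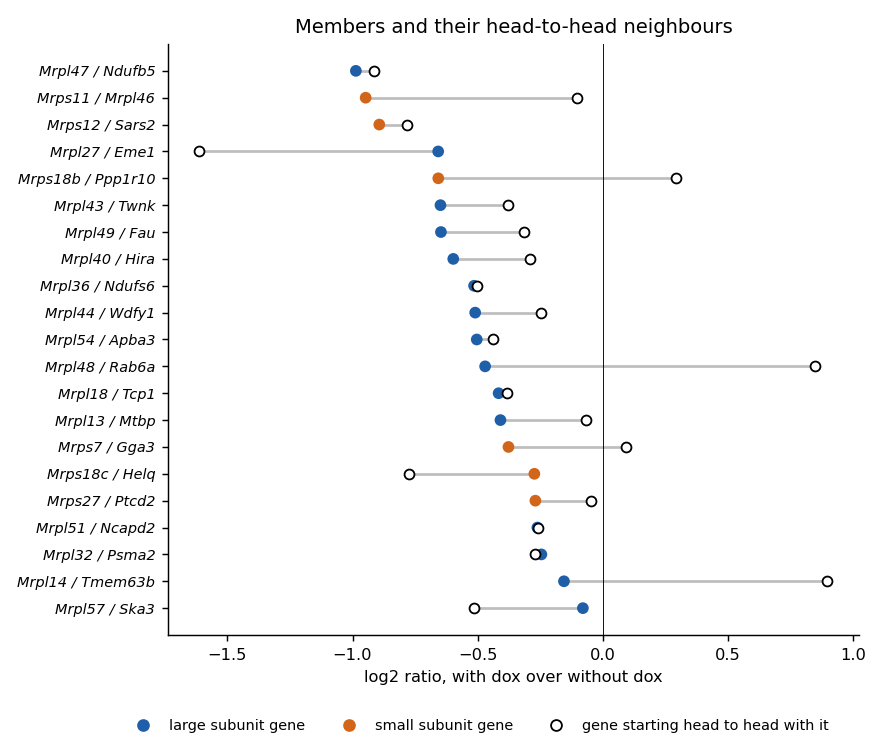
Log2 ratio, with dox over without dox, of 21 members (filled) and of the protein-coding gene that starts head to head with each (open), ordered by the member. All 21 members shown first lie below 0, and 4 of their neighbours, Ppp1r10, Rab6a, Gga3 and Tmem63b, lie above 0. In the pair of Mrps11 and Mrpl46, both members, Mrps11 is the filled point and Mrpl46 the open one.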

How the data were processed

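Total RNA was taken with TRIzol and sequenced from Illumina TruSeq libraries, 1 per culture, per the labels' protocols. The tools named are bcl2fastq, Bowtie2 and RSEM, and the build is mm10, per the submitters' processing notes. Tool versions, annotation, normalization and use of strand are not stated. The deposited values were treated as a score, that is, as values the authors normalized and then rounded, and no count test was used. The reason is that quartiles were the same in both libraries and 75.5% of sorted positions held equal values (tolerance 0), so a ratio compares places in nearly the same distribution. All value columns were used (0 left out).

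Log2 ratios, with dox over without dox, had a pseudocount of 10, a floor of 50 and thresholds of 1.5-fold and 2-fold, without a test. GENCODE M21 (GRCm38, the assembly of mm10), joined by symbol, gave all 77 members positions and 8472 of 8547 genes (99.1%) a length, that of the longest transcript of the gene's own type. The length trend was a lowess fit (fraction 0.3) on log10 length. Near-identical transcripts (at least 95% identity over at least 50% of the transcript) were sought with BLAST 2.17.0, and 6 members had one. Named genes were members past 2-fold, the 5 highest and 5 lowest log2 ratios per subunit, the 5 largest values per kb, members whose symbol and place differ, the Mrps18 paralogs, those beside the floor and, of other lists, genes past 2-fold or else the 2 largest. Other genes, those of head-to-head pairs and of places in the ribosome among them, were picked with values known. The members and lists were chosen with earlier results of these data known. Alternatives were other pseudocounts, floors and centring, removal of the length trend and subunits by place. The log2 ratio, the 2-fold call and the removal of the length trend were tested on simulated data, and the other steps were not. Python 3.11.15 was used, with statsmodels 0.14.6 for lowess, pandas 2.3.3, numpy 2.4.6 and matplotlib 3.10.9.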

Additional observations from a re-analysis of the deposited data

How the results depend on the processing

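With 1 library per group no value has a spread between cultures and no library could be left out. No paired analysis was possible because each group has 1 library. Of 64 recomputed values 43 kept their sign and moved by at most 0.1 on the log2 scale or, for counts, by at most 1.5 times. A pseudocount of 50 gave medians of −0.37 for the family, −0.37 for the large and −0.38 for the small subunit, with 11 members at least 1.5-fold lower. A floor of 250 left 9 members, with a small subunit median of −0.66, a difference between large and small of 0.19 and 4 members at least 1.5-fold lower, since fewer genes enter. With the transcript length trend removed the medians were −0.25, −0.24 and −0.28, with 8 members at least 1.5-fold lower and 1 higher. With the trend taken on coding length instead, chosen after seeing the data, they were −0.31, −0.29 and −0.34, with 12 members lower. Without a floor the difference between large and small became −0.0056, against 0.016. Mrps6 and 2 large subunit genes enter, and only the small subunit median moved, from −0.52 to −0.50, while the large stayed at −0.51. Leaving out the 17 members that share exons or near-identical sequence with another gene, also chosen after seeing the data, gave a family median of −0.51 over 58 members. The count of members at least 2-fold lower was recomputed after seeing the data. It was 2 with the pseudocount of 10, 7 with a pseudocount of 1, 0 with a pseudocount of 50, 1 with the floor of 250 and 1 with the coding length trend removed. For the pseudocount of 50, the floor of 250 and the coding length trend, the shares of all genes past these folds were not computed. The counts under those settings describe the members alone. The unknown normalization and depth limit every value.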

Other observations

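Genes of regulators tied to nuclear genes for mitochondria gave no common direction. Of 11 in the list 10 were among the rows and 7 reached the floor, with a median log2 ratio of 0.04. Nrf1, whose product binds the NRF-1 motif, stood at 199 with dox and 205 without dox. Gabpa, which encodes the DNA-binding subunit of GABP, stood at 711 with dox and 611 without dox, and Yy1 at 259 with dox and 252 without dox. Pprc1, a coactivator gene related to PGC-1, was past 2-fold, at 468 with dox and 1005 without dox. Under the floor, and picked with values known, lay Esrra, at 23 with dox and 33 without dox, and Myc, at 4 with dox and 34 without dox. The part of these genes in the lower values of the ribosomal protein genes was not tested.

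The members are spread over 17 chromosomes, with at most 11 on 1 of them. On the chromosomes with at least 5 members at or above the floor, the median log2 ratio ran from −0.65 on chromosome 7 (6 genes) to −0.27 on chromosome 13 (5 genes).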
